A study of Mus musculus with 18 samples.

Results

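The 8 genes Prox1, Dsp, C1ql2, C1ql3, Wfs1, Spink8, Fibcd1 and Zbtb20 mark subfields of the mouse hippocampus, and their mRNA was followed here through dissected forebrain, midbrain and hindbrain. They were chosen by symbol and not by a cut on their measured values, but with earlier results of these data known. They are 8 of the 53468 genes counted, each matched to 1 Ensembl identifier through GENCODE release M21. All 8 passed the filter on low counts in every comparison. The question was which dissected region carries hippocampal mRNA, and whether the level of these genes differed between Fmr1CRE and wild-type mice.

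Poly(A) RNA was sequenced at postnatal day 25 from 3 Fmr1CRE mice and 3 wild-type littermates, and each mouse gave 1 forebrain, 1 midbrain and 1 hindbrain library, 18 in all. Fmr1CRE mice carry a single-base variant in a cis-regulatory element of Fmr1, the gene of the RNA-binding protein FMRP, introduced by CRISPR/Cas9 in zygotes on a C57BL/6 background. More than 1 line was made, and the line sequenced is not given in the sources used here. The wild-type mice carry neither the variant nor any other allele named in the labels, and no mouse was treated.

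The hippocampus is a fold of the dorsal and caudal telencephalon that lies over the thalamus and against the roof of the midbrain, so a cut between forebrain and midbrain can pass close to it. Granule cells of the dentate gyrus send mossy fibres to CA3, and pyramidal cells of CA3 in turn contact those of CA1, the main output of the circuit. Prox1 is a homeobox factor that sets granule cell identity, Dsp encodes the desmosome protein desmoplakin, and C1ql2 and C1ql3 encode secreted C1q-like proteins that organise synapses, those of mossy fibres among them. Wfs1 encodes the endoplasmic reticulum protein wolframin, Spink8 a Kazal-type protease inhibitor and Fibcd1 a membrane receptor with a fibrinogen-like domain, and all 3 mark CA1. Zbtb20 is a zinc finger repressor needed for hippocampal neurons to form and is also made by astrocytes. Several of the 8 genes have other sites of expression in the brain, among them Wfs1 and C1ql3 in neocortex and Prox1 in interneurons and thalamus.

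Libraries held 22455512 to 28061185 counts each. Values are CPM, read counts scaled to library size, after TMM scaling, and log2 differences come from edgeR's quasi-likelihood test with Benjamini-Hochberg adjustment over all genes tested, called at an adjusted p under 0.05. Fmr1 itself lay between 49.8 and 82.7 CPM over all libraries and its log2 difference between genotypes was -0.0033 (forebrain), 0.0056 (midbrain) and 0.15 (hindbrain; adjusted p of 0.996, 0.995 and 0.906 from edgeR), so its level does not check the genotype labels. Region labels were read against their markers. Slc6a3, the dopamine transporter, lay at 20.9 to 45.5 CPM in midbrain and at most 0.440 CPM in 5 forebrain libraries, with 8.29 CPM in that of Fmr1CRE replicate 3, and Hoxa5, a homeobox gene of the caudal hindbrain, lay at 24.4 to 35.4 CPM in hindbrain and at most 0.437 CPM elsewhere. Midbrain libraries also held Gabra6, a receptor subunit of cerebellar granule cells, at 34.0 to 94.5 CPM, and Tbr1, a factor of telencephalic excitatory neurons, at 24.1 to 57.2 CPM. The forebrain libraries labelled replicate 3 stand in doubt. Of 16 genes that set wild-type mouse 3 apart from Fmr1CRE mouse 3 by at least 3 log2 units in both midbrain and hindbrain, 13 pointed the opposite way in forebrain, and 8 did so by at least 3 log2 units. No other pair of mice, in any region, had more than 5 genes that did so by as much. As a percentage, 81% pointed the opposite way here, against 16.7% to 83.3% over the other pairs and regions. That percentage alone does not set this pair apart. An exchange of these forebrain libraries and one of the other libraries of the same mice cannot be told apart, so the counts of calls, and the calls and sizes that moved, are also given without both mice of that number.

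**Figure D1:**
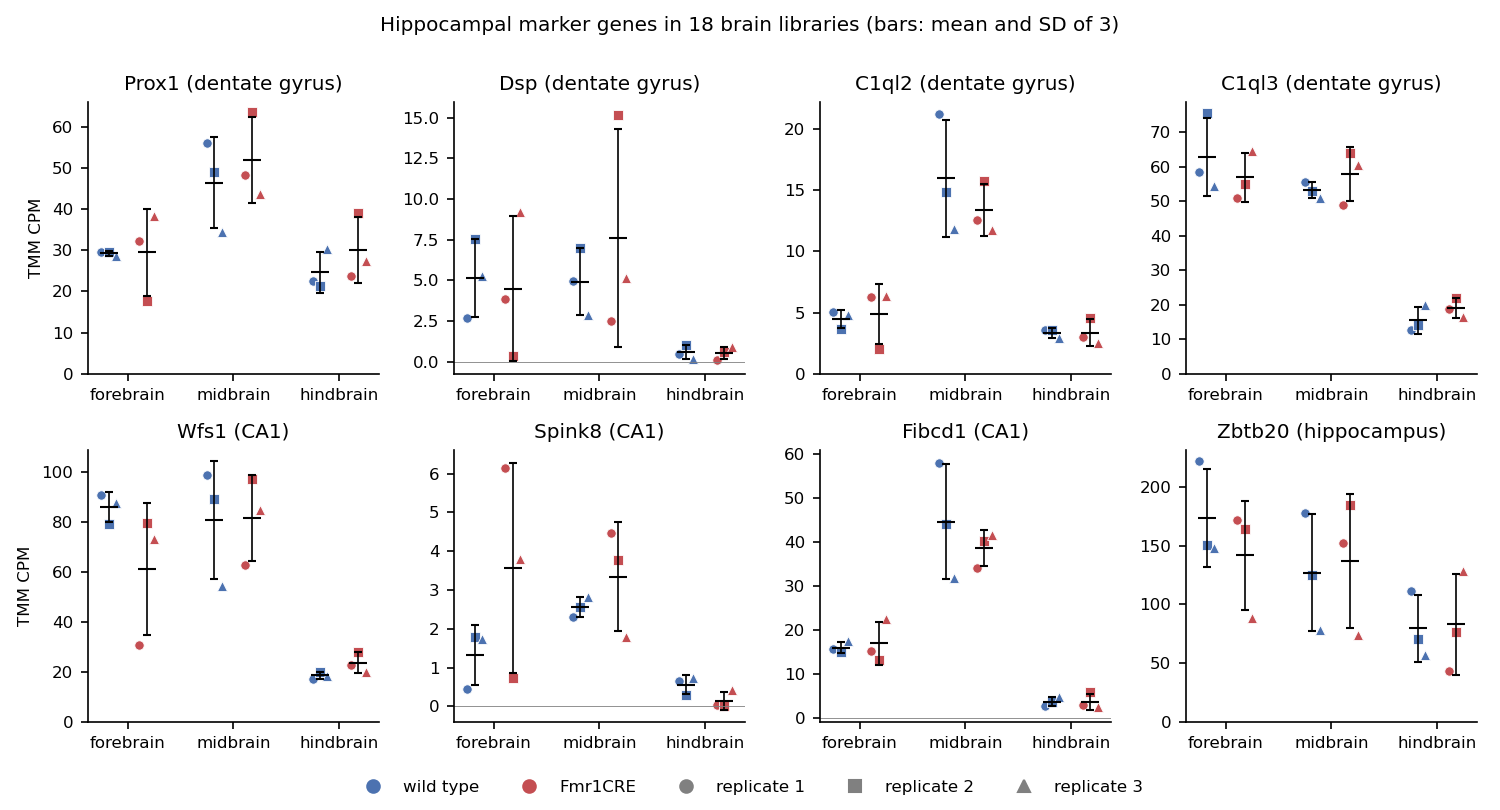
CPM of each of the 8 genes in the 18 libraries, by region on the horizontal axis, with wild-type mice in blue and Fmr1CRE mice in red, the replicate number as the symbol, and the mean and SD of 3 libraries in black. Fibcd1 and C1ql2 are higher in all 6 midbrain libraries than in any forebrain library, and Dsp in Fmr1CRE replicate 2 lies at 0.371 CPM in forebrain and 15.2 CPM in midbrain.

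Among the dentate gyrus genes, Dsp (ENSMUSG00000054889, chromosome 13, 38151294 to 38198577, plus strand of GRCm38) was higher in forebrain and midbrain than in hindbrain. Its lowest, median and highest values were 0.371, 4.55 and 9.22 CPM in forebrain, 2.53, 5.03 and 15.2 CPM in midbrain, and 0.141, 0.547 and 1.06 CPM in hindbrain. All 6 midbrain libraries lay above every hindbrain library, whereas 1 forebrain library, that of Fmr1CRE replicate 2 with 9 counts, fell within the hindbrain range. The difference from hindbrain was 3.06 on the log2 scale (SE 0.67, adjusted p = 0.0012 from edgeR) for forebrain and 3.39 (SE 0.67, adjusted p = 0.00064) for midbrain. Without both mice of replicate 3 the forebrain difference was 2.61 (adjusted p = 0.0293). In bulk tissue, fewer cells of a type and less RNA per cell cannot be told apart, for this gene as for the others.

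C1ql2 (ENSMUSG00000036907, chromosome 1, 120340582 to 120343174, plus strand) was the dentate gyrus gene most unevenly split between forebrain and midbrain. Its lowest, median and highest values were 2.06, 4.90 and 6.39 CPM in forebrain, 11.7, 13.7 and 21.2 CPM in midbrain and 2.54, 3.26 and 4.58 CPM in hindbrain. Midbrain stood clear of both other regions, while forebrain and hindbrain overlapped. Midbrain exceeded hindbrain by 2.09 on the log2 scale (SE 0.25, adjusted p = 4.7e-06 from edgeR), and the forebrain difference of 0.48 (SE 0.24, adjusted p = 0.115) was not called.

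C1ql3 (ENSMUSG00000049630, chromosome 2, 13003457 to 13011806, minus strand), the close relative of C1ql2, was spread evenly over forebrain and midbrain. It ranged from 51.0 to 75.5 CPM in forebrain with a median of 56.8, from 48.9 to 63.9 CPM in midbrain with a median of 54.4, and from 12.6 to 22.1 CPM in hindbrain with a median of 17.5. Both anterior regions lay above hindbrain in every library, by 1.79 (SE 0.12, adjusted p = 7.3e-09) and 1.66 (SE 0.12, adjusted p = 3.7e-08) on the log2 scale. Of the 31-base sequences of its transcript, 62.8% also occur in other annotated genes, nearly all in Gm37811 on the opposite strand. The authors' estimates assigned 6 to 38 counts per library to Gm37811 and 347 to 1888 to C1ql3, and where the shared reads came from was not tested.

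Prox1 (ENSMUSG00000010175, chromosome 1, 190118035 to 190170714, minus strand) was present in all 3 regions and called higher in midbrain. Its lowest, median and highest values were 17.7, 29.6 and 38.4 CPM in forebrain, 34.3, 48.6 and 63.6 CPM in midbrain and 21.2, 25.5 and 39.1 CPM in hindbrain. The ranges of neighbouring regions overlapped. Midbrain exceeded hindbrain by 0.82 (SE 0.18, adjusted p = 0.0016 from edgeR), and forebrain differed from hindbrain by 0.10 (SE 0.18, 95% interval -0.29 to 0.49, adjusted p = 0.669).

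Of the CA1 genes, Fibcd1 (ENSMUSG00000026841, chromosome 2, 31813290 to 31846005, minus strand) had 3 separate levels. Its lowest, median and highest values were 31.8, 41.0 and 58.1 CPM in midbrain, 13.3, 15.5 and 22.6 CPM in forebrain and 2.62, 3.37 and 5.94 CPM in hindbrain, with no overlap between any pair of regions. The differences from hindbrain were 3.40 for midbrain (SE 0.22, adjusted p = 5.9e-09 from edgeR) and 2.10 for forebrain (SE 0.21, adjusted p = 5.1e-07).

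Spink8 (ENSMUSG00000050074, chromosome 9, 109812280 to 109826633, plus strand), the CA1 gene with the fewest reads, was low in every library. In forebrain it had 156, 18 and 90 counts in Fmr1CRE replicates 1, 2 and 3 and 10, 45 and 45 counts in wild-type replicates 1, 2 and 3, and in midbrain 44 to 108 counts over the 6 mice. In hindbrain it had 1, 0 and 10 counts in Fmr1CRE mice and 18, 9 and 19 counts in wild-type mice. As CPM these were 0.440 to 6.16 in forebrain, 1.79 to 4.48 in midbrain and at most 0.742 in hindbrain, so that midbrain stood clear of hindbrain and forebrain did not. The log2 difference from hindbrain was 2.92 for forebrain (SE 0.61, adjusted p = 0.00076 from edgeR) and 3.32 for midbrain (SE 0.60, adjusted p = 0.0003). Both sizes moved with few libraries: without Fmr1CRE replicate 3 they were 4.24 and 4.83, without both mice of replicate 3 they were 4.24 and 4.91, and in wild-type mice alone the forebrain difference was 1.23 and no longer called (adjusted p = 0.0723), while the midbrain difference was 2.14 and still called (adjusted p = 0.0072).

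Wfs1 (ENSMUSG00000039474, chromosome 5, 36966104 to 36989205, minus strand) was high in both anterior regions. It lay between 73.2 and 91.1 CPM in 5 forebrain libraries and at 30.9 CPM in the other, that of Fmr1CRE replicate 1, between 54.4 and 99.0 CPM in midbrain, and between 17.2 and 28.2 CPM in hindbrain. Neither anterior region overlapped hindbrain. The differences were 1.78 for forebrain (SE 0.21, adjusted p = 2.6e-06 from edgeR) and 1.92 for midbrain (SE 0.21, adjusted p = 2e-06). The forebrain library with the low Wfs1 value also had the lowest sum over 7 striatal genes, 306 CPM against 587 to 932 CPM in the other forebrain libraries, and the part of striatal tissue in the Wfs1 value was not tested.

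Zbtb20 (ENSMUSG00000022708, chromosome 16, 42875881 to 43642602, plus strand), which is shared by all hippocampal subfields, was found at a substantial level in every region. Its lowest, median and highest values were 88.7, 157 and 222 CPM in forebrain, 74.0, 138 and 184 CPM in midbrain and 43.6, 73.7 and 129 CPM in hindbrain, and the 3 ranges overlapped. Forebrain exceeded hindbrain by 0.93 on the log2 scale (SE 0.30, adjusted p = 0.0151 from edgeR). That call was lost without Fmr1CRE replicate 1 (0.70, adjusted p = 0.0838) and without Fmr1CRE replicate 2 (0.87, adjusted p = 0.0576). The midbrain difference of 0.66 (SE 0.30, adjusted p = 0.0753) was not called, but it was 1.09 without both mice of replicate 3 (adjusted p = 0.0037). The summed CPM of 10 astrocyte genes was 3489 to 7177 in forebrain, 3593 to 4863 in midbrain and 2706 to 3883 in hindbrain. Slc1a2 alone made up 2123 to 5064 CPM of it in forebrain and 773 to 1355 CPM in hindbrain. Of the 10 genes, 3 were called higher in forebrain than in hindbrain and 3 lower, against 26.4% and 25.3% of all genes tested. The median log2 difference of the 10 was 0.14. Gfap (-1.65) and Aqp4 (-1.52) were among the lower, so the sum does not stand for the list. The part of astrocytes in the Zbtb20 level was not tested. Of the genes that overlap Zbtb20 in the annotation, 5 lie on its own strand and 4 on the other, and 0.681% of its 31-base sequences occur in other genes.

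Against hindbrain, then, 6 of the 8 genes were called higher in forebrain and 0 lower, where 26.4% of the 20363 genes tested were called higher and 25.3% lower. With a log2 difference of at least 1 also required, 5 of 8 were called, against 10.7% of all genes. In midbrain 7 of 8 were called higher than in hindbrain and 0 lower, where 25.1% of all genes were called higher and 24% lower, and 6 of 8 passed the stricter rule against 8.49% of all genes. The median log2 difference of the 8 genes was 1.78 for forebrain and 2.01 for midbrain. Without both mice of replicate 3, 6 and 8 of the genes were called higher than in hindbrain. Over all genes these fits called 8944 and 8867 in either direction, against 10530 and 9994 with all mice. In wild-type mice alone 5 and 7 of the 8 genes were called higher, with 8299 and 7489 genes called in either direction.

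**Figure D2:**
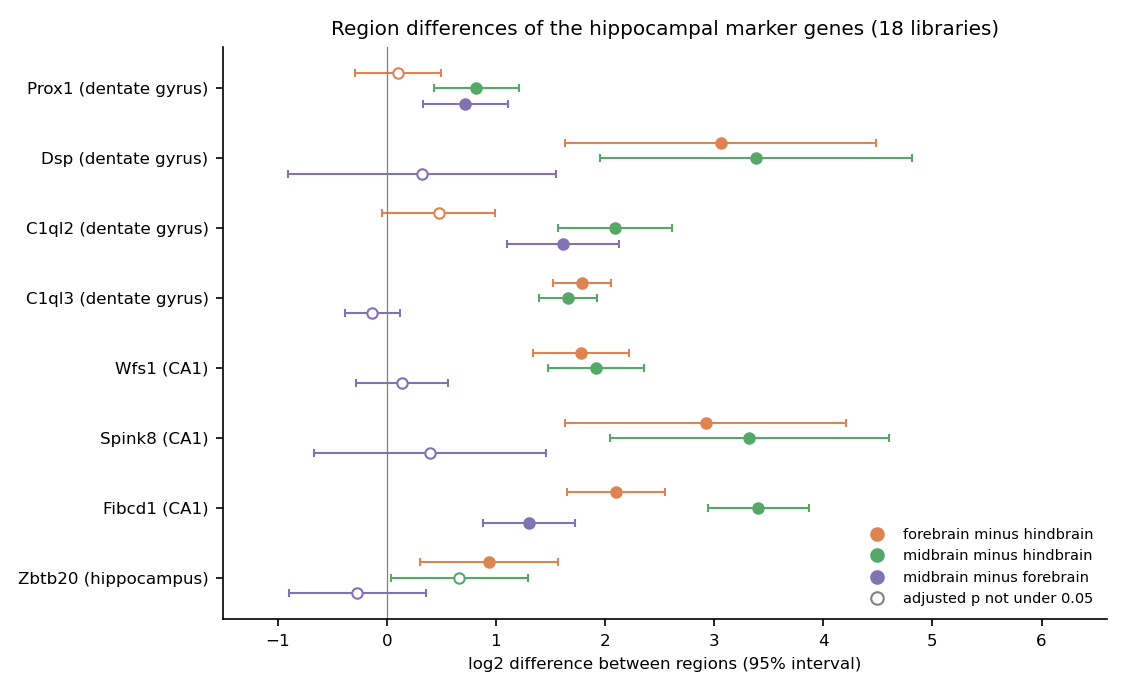
Log2 difference between regions (horizontal axis) for each of the 8 genes, with 95% intervals from edgeR over 18 libraries, where filled points have an adjusted p under 0.05 and open points do not. Dsp, Spink8 and Fibcd1 show the largest differences from hindbrain, and C1ql2, Fibcd1 and Prox1 are the 3 genes with filled points for midbrain minus forebrain.

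Set directly against each other, midbrain and forebrain differed for 3 of the 8 genes, and all 3 were higher in midbrain. This compares with 9.96% of all genes tested called higher in midbrain and 9.38% called lower, or 2.27% called higher with a log2 difference of at least 1. The log2 difference was 1.62 for C1ql2 (SE 0.24, 95% interval 1.10 to 2.13, adjusted p = 0.00026 from edgeR), a 3.06-fold higher level, and 1.30 for Fibcd1 (SE 0.20, 95% interval 0.89 to 1.72, adjusted p = 0.00029), a 2.47-fold higher level. Both genes were higher in midbrain in 6 of 6 mice and their midbrain and forebrain ranges did not overlap. The share of all genes tested that did either between regions was not counted. Prox1 was higher by 0.72 (SE 0.18, adjusted p = 0.0122), also in 6 of 6 mice as labelled. Were the forebrain libraries of replicate 3 exchanged, wild-type replicate 3 would have 34.3 CPM in midbrain and 38.4 CPM in forebrain. Prox1 would then be lower in midbrain in that mouse. The Prox1 call was lost without wild-type replicate 1 (0.64, adjusted p = 0.0796), without wild-type replicate 2 (0.70, adjusted p = 0.06) and in wild-type mice alone (0.64, adjusted p = 0.0637). Without both mice of replicate 3, the differences were 1.90 for C1ql2, 1.54 for Fibcd1 and 0.98 for Prox1, all called.

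The other 5 genes gave no call between midbrain and forebrain, and their intervals differ in width. The difference was -0.13 for C1ql3 (95% interval -0.39 to 0.12) and 0.14 for Wfs1 (95% interval -0.28 to 0.56), so that differences of more than 0.56 on the log2 scale lie outside both intervals. For Zbtb20 it was -0.27 (95% interval -0.90 to 0.36). Dsp and Spink8, with a wide spread between mice, differed by 0.33 (95% interval -0.90 to 1.55) and 0.40 (95% interval -0.66 to 1.46), which leaves room for a difference of more than 2-fold in midbrain. Dsp was higher in midbrain in 2 of 6 mice. Its difference moved both ways with single mice, to -0.44 without Fmr1CRE replicate 2, 0.98 without Fmr1CRE replicate 3 and 1.13 without both mice of replicate 3, and was called in none of these (adjusted p from 0.293 to 0.590 with edgeR).

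The 250 bases before the annotated start of C1ql2 and Fibcd1, the genes with the clearest excess in midbrain, are shown beside those of Dsp, for which no difference was called. They are given 5′ to 3′ on the strand of the gene, from RefSeq sequence of GRCm38.p6, with capitals for matches on either strand to the E-box CANNTG, the TATA box TATAAA and the GC box GGGCGG. The windows are chr1:120340332-120340581 (plus strand) for C1ql2, chr2:31846006-31846255 (minus strand) for Fibcd1 and chr13:38151044-38151293 (plus strand) for Dsp.
C1ql2: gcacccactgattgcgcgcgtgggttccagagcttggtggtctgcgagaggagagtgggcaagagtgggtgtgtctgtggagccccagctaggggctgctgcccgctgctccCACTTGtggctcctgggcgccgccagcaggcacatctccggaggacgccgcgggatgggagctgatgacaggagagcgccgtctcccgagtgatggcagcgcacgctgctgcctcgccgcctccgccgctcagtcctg
Fibcd1: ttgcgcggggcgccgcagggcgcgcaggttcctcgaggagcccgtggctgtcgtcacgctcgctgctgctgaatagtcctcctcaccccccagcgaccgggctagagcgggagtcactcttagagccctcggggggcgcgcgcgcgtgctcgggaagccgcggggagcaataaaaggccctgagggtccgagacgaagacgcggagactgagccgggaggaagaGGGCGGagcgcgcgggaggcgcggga
Dsp: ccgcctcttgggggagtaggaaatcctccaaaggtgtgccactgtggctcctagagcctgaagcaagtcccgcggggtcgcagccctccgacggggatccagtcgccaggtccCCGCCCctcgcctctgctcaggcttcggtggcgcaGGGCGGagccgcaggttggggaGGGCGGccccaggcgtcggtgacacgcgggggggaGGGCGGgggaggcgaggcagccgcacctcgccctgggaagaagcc

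The C1ql2 window held 1 E-box and no GC box, that of Fibcd1 1 GC box and that of Dsp 4 GC boxes, and none of the 3 held the TATA box as spelled here. The 3 windows were 68.8%, 71.6% and 72.4% G or C, against a median of 52.4% over the 32851 promoter windows of the same table. Of those windows, 66.2% held an E-box, 12.4% the TATA box and 32.7% the GC box, and C1ql2 and Fibcd1 had none of these motifs in common.

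Within a mouse, the split of a gene between its midbrain and forebrain libraries was described by the midbrain CPM as a percentage of the sum of both. For Fibcd1 this share lay between 64.3% and 78.7% in the 6 mice, and for C1ql2 between 64.8% and 88.5%. For C1ql3 it lay between 41.3% and 53.7%, and for Zbtb20 between 34.5% and 52.9%. Dsp and Spink8 varied most from mouse to mouse, from 35.3% to 97.6% and from 32.0% to 84.0%. The lowest shares of Fibcd1, C1ql2, Zbtb20, Dsp and Spink8 came from the mice of replicate 3, whose pairing of libraries is in doubt.

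Fmr1CRE replicate 2 had the highest midbrain share for 5 of the 8 genes, namely Prox1 (78.2%), Dsp (97.6%), C1ql2 (88.5%), C1ql3 (53.7%) and Zbtb20 (52.9%), and the second highest for the other 3. Its forebrain library had the lowest value of the 6 forebrain libraries for Prox1, Dsp, C1ql2 and Fibcd1, and its midbrain library the highest of the 6 midbrain libraries for Prox1, Dsp, C1ql3 and Zbtb20. Wild-type replicate 1 had the highest share for Spink8 (84.0%) and Fibcd1 (78.7%). At the other end, wild-type replicate 3 had the lowest share for 4 genes and Fmr1CRE replicate 3 for 3, with the forebrain labels of that number in doubt. The same forebrain library of Fmr1CRE replicate 2 had the lowest sum over 8 thalamic genes, 97.6 CPM against 174 to 258 CPM in the other forebrain libraries, and the highest sum over 7 striatal genes, 932 CPM. The part of the dissection in these shares was not tested.

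**Figure D3:**
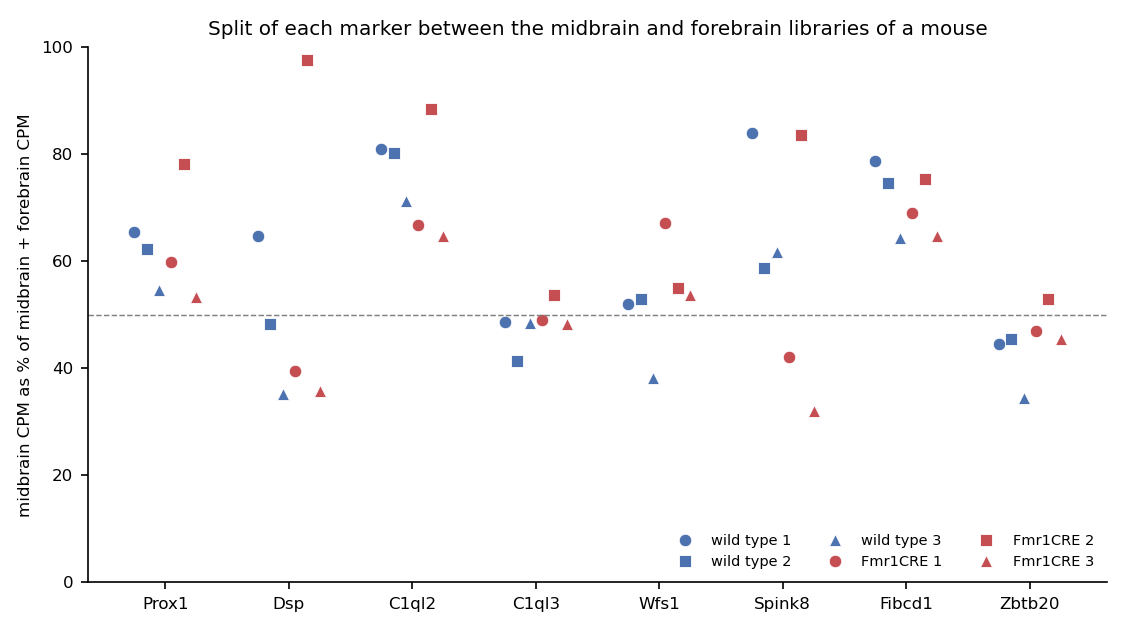
Midbrain CPM of each gene as a percentage of midbrain plus forebrain CPM in the same mouse (vertical axis), for 3 wild-type mice in blue and 3 Fmr1CRE mice in red, with a dashed line at equal levels. Fibcd1, C1ql2 and Prox1 lie above the line in all 6 mice as labelled, and the red square of Fmr1CRE replicate 2 is the top point for 5 genes. The pairing of libraries in the mice of replicate 3 is in doubt.

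Further markers of the hippocampal subfields, 21 genes in 4 lists, were read for comparison. Of these, 14 were called higher in forebrain than in hindbrain and 2 lower, against 26.4% and 25.3% of all genes tested. In midbrain 16 were called higher than in hindbrain and 0 lower, against 25.1% and 24%. Between midbrain and forebrain 3 were called higher in midbrain and 6 lower, where 9.96% of all genes tested were called higher and 9.38% lower. The median log2 difference was -0.035, against 0.36 for the 8 genes and -0.023 for all genes tested. The 3 higher in midbrain were Dock10 (0.38), Grik4 (0.34) and Amigo2 (0.71), and the 6 lower were Pdzd2 (-0.76), Bok (-0.80), Coch (-1.23), Rgs14 (-0.72), Map3k15 (-0.67) and Mpped1 (-0.36). Coch was named here after its value was seen, to complete that count. The 3 genes higher in midbrain were also present in hindbrain, with medians of 96.6 CPM for Dock10, 17.5 for Grik4 and 12.5 for Amigo2. Midbrain differed from hindbrain by -0.15 for Dock10 (adjusted p = 0.277 from edgeR, not called), 0.58 for Grik4 and 0.92 for Amigo2. Dock10 was lower in forebrain than in hindbrain (-0.53). Among the lower genes, hindbrain medians were 14.3 CPM for Pdzd2, 10.2 for Bok, 1.39 for Map3k15 and 21.98 for Mpped1. For Coch the hindbrain mean was 6.14 CPM. Midbrain exceeded hindbrain by 1.54 for Pdzd2, 0.999 for Bok, 1.18 for Coch, 5.12 for Rgs14 and 2.48 for Mpped1, all called. Map3k15 differed by 0.14 (adjusted p = 0.483 from edgeR, not called). Rgs14, a signalling regulator of CA2 neurons, lay at 29.7 to 40.8 CPM in forebrain, 17.3 to 30.3 CPM in midbrain and at most 1.25 CPM in hindbrain, so it too was present in both anterior regions.

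By subfield, 1 of 7 further dentate gyrus genes was called higher in midbrain than in forebrain and 1 lower (median 0.090). Of 7 CA3 genes 1 was called higher and 2 lower (median -0.098). Of 4 CA2 genes 1 was called higher and 2 lower (median -0.14). Of 3 CA1 genes 0 were called higher and 1 lower (median -0.36). Over all genes tested these shares were 9.96% higher and 9.38% lower, which apply to the lists below as well. Mpped1, the most abundant of the further CA1 genes, lay at 131 to 170 CPM in forebrain and 102 to 132 CPM in midbrain, lower in midbrain in 6 of 6 mice as labelled. Fibcd1 and Mpped1, both listed for CA1, thus moved in opposite directions between these regions.

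The lists for tissue around the hippocampus show what else the libraries held. Of 8 neocortical genes, 4 were called lower in midbrain than in forebrain and 0 higher (median -0.50), and all 7 striatal genes were called lower (median -2.34). Of 8 thalamic genes 2 were called higher in midbrain, Tcf7l2 by 1.41 and Ntng1 by 0.70 (median of the list 0.22), and their sum was 187 to 349 CPM in midbrain and 97.6 to 258 CPM in forebrain. All 7 midbrain and all 7 hindbrain genes were called higher in midbrain, with medians of 4.89 and 6.67. The neocortical genes still summed to 293 to 435 CPM in midbrain, against 421 to 502 CPM in forebrain and 183 to 272 CPM in hindbrain. Their part in the midbrain values of C1ql3 and Wfs1, and that of the thalamic and midbrain genes in the values of Prox1, C1ql2 and Fibcd1, was not tested.

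Other cell types that express single members were read in the same way. Dsp is also made by meningeal cells, and of 10 meningeal genes 3 were called higher in midbrain than in forebrain and 0 lower (median 0.46). Their sum was 51.2 to 97.3 CPM in forebrain, 71.2 to 122 CPM in midbrain and 81.6 to 113 CPM in hindbrain. The part of meningeal cells in the Dsp values was not tested. Prox1 is also made by interneurons from the caudal ganglionic eminence, and of 3 such genes Adarb2 was higher in midbrain by 0.38, Vip lower by a log2 difference of -0.82, and Htr3a differed by 0.16 with no call. Of 10 astrocyte genes 1 was called higher in midbrain and 1 lower (median -0.054).

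**Figure D4:**
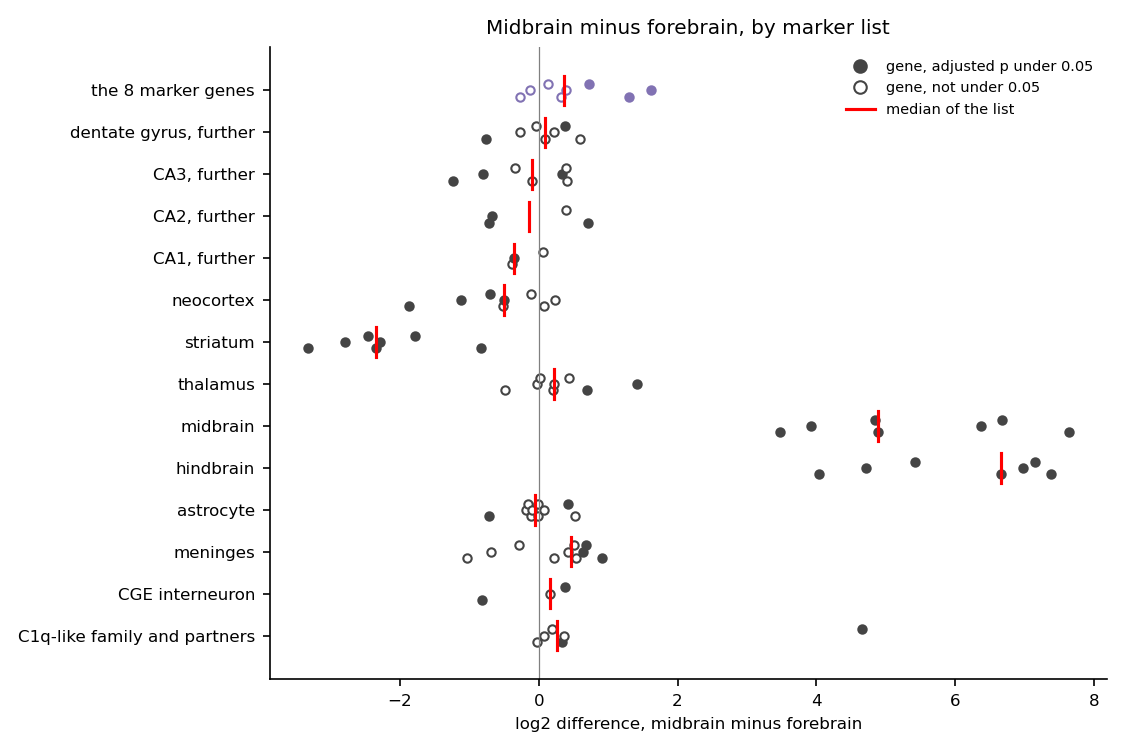
Log2 difference of midbrain minus forebrain (horizontal axis) for the 8 genes in purple and for each gene of 13 further marker lists in grey, filled where the adjusted p from edgeR is under 0.05, with the median of each list as a red bar. The striatal median lies at -2.34 and the midbrain and hindbrain medians at 4.89 and 6.67, while the 4 hippocampal lists have medians between -0.36 and 0.090.

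The relatives and partners of C1ql2 and C1ql3 were followed as a further list of 6 genes, the family members C1ql1 and C1ql4, the receptor Adgrb3, the presynaptic partner Nrxn3 and the kainate receptor subunits Grik2 and Grik4. Of these 2 were called higher in midbrain than in forebrain and 0 lower (median 0.26), namely C1ql4, which rose from a mean of 0.111 CPM in forebrain to 2.97 CPM in midbrain, and Grik4, also listed for CA3, at 0.34, both in 6 of 6 mice. C1ql4 was named after its value was seen, to complete that count. Nrxn3 lay at 105 to 180 CPM in forebrain and 142 to 221 CPM in midbrain and differed by 0.19 with no call (adjusted p = 0.36 from edgeR), Adgrb3 by 0.079 (adjusted p = 0.528) and Grik2 by -0.028 (adjusted p = 0.921).

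Levels between genes were compared as CPM per kilobase of effective transcript length, with the length taken from the authors' transcript estimates pooled over all 18 libraries. The 5 genes for which the most read transcript held a similar share of reads and of TPM were ordered. Neighbours were taken to differ where their means lay farther apart than their SDs added together. In forebrain the mean and SD over 6 libraries were 20.7 ± 3.10 for C1ql3, 4.15 ± 0.951 for Prox1, 2.87 ± 0.566 for Fibcd1, 1.73 ± 0.605 for C1ql2 and 0.558 ± 0.374 for Dsp, and Prox1, Fibcd1 and C1ql2 did not differ from their neighbours among these 3. In midbrain they were 19.2 ± 1.99 for C1ql3, 7.21 ± 1.61 for Fibcd1, 6.95 ± 1.42 for Prox1, 5.41 ± 1.33 for C1ql2 and 0.726 ± 0.540 for Dsp, where again the middle 3 did not differ from their neighbours among them. In hindbrain they were 5.99 ± 1.24 for C1ql3, 3.87 ± 0.944 for Prox1, 1.24 ± 0.267 for C1ql2, 0.665 ± 0.227 for Fibcd1 and 0.0658 ± 0.0430 for Dsp, and only C1ql3 and Prox1 did not differ. Wfs1, Spink8 and Zbtb20 were left out of this order, after their values were seen, because their lengths depend on how reads were split among transcripts. Their most read transcript held 65.1%, 46.3% and 99.2% of reads but 49.1%, 8.88% and 44.3% of TPM.

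Genes with the most similar profile were found by Pearson correlation of log2 CPM over the 18 libraries among 14302 protein-coding genes, a description in which region accounts for much of each value. The closest profile was that of Gpr161 for C1ql2 (r = 0.946), Tenm2 for Fibcd1 (r = 0.985), Cacna2d1 for C1ql3 (r = 0.989), Thra for Wfs1 (r = 0.991), Kif1bp for Prox1 (r = 0.932), Lingo2 for Dsp (r = 0.876), Itga8 for Spink8 (r = 0.855) and Hivep3 for Zbtb20 (r = 0.813). Amigo2, listed for CA2, was among the 3 closest to C1ql2 (r = 0.924). Over the 12 forebrain and midbrain libraries, with the mean of each region taken off, Dsp was closest to Calb2 (r = 0.905), which encodes calretinin, C1ql2 to Chrna3 (r = 0.921), Fibcd1 to Gpr161 (r = 0.930) and Spink8 to Akr7a5 (r = 0.911). Libraries of 1 mouse share their animal, so these points are not independent.

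Between the genotypes, 0 of the 8 genes were called in forebrain, midbrain or hindbrain by edgeR's quasi-likelihood test, and 0 had an unadjusted p under 0.05 in any region. An unadjusted p under 0.05 was found for 1002 of 18467 genes tested in forebrain, 1135 of 18400 in midbrain and 981 of 19112 in hindbrain. Over all genes tested, the share called was 0% in forebrain, 0.00543% in midbrain (1 gene) and 0% in hindbrain. DESeq2 called 31, 62 and 59 genes in the 3 regions, 0 of the 8 among them. In forebrain it gave an unadjusted p under 0.05 to 1 of the 8 and to 1112 of 18467 genes tested. In midbrain and hindbrain 0 of the 8 had such a value, against 1093 of 18400 and 1089 of 19112 genes. Without both mice of replicate 3, edgeR gave an unadjusted p under 0.05 to 0 of 8 in forebrain, 2 of 8 in midbrain and 1 of 7 tested in hindbrain. The same held for 2545 of 18763, 2168 of 18434 and 2390 of 19399 genes tested in these regions, and 0 of the 8 were called. With 3 mice against 3, the smallest two-sided exact permutation p is 0.1. Since it is not known which libraries of replicate 3 may have been exchanged, their genotype labels are in doubt in every region. The genotype values below are given as labelled.

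The largest genotype difference in forebrain was that of Spink8, at 6.16, 0.741 and 3.81 CPM in Fmr1CRE mice and 0.440, 1.80 and 1.75 CPM in wild-type mice. The groups overlapped, and the log2 difference of 1.45 had a 95% interval of -0.31 to 3.21 (adjusted p = 0.806 from edgeR, exact permutation p = 0.4). In hindbrain the same gene lay at 0.0354, 0 and 0.416 CPM in Fmr1CRE mice and 0.654, 0.290 and 0.742 CPM in wild-type mice, a difference of -1.96 (95% interval -4.19 to 0.27, adjusted p = 0.875, exact permutation p = 0.2). In midbrain the difference was 0.38 (95% interval -0.40 to 1.15). A test of whether the genotype difference varied with region gave Spink8 an unadjusted p of 0.0435 and an adjusted p of 0.66 with edgeR's quasi-likelihood test. It was the only one of the 8 genes under 0.05 unadjusted, as were 1535 of all 20363 genes, of which 0% were called after adjustment by edgeR and 52 genes by DESeq2.

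Wfs1 was the only one of the 8 genes whose genotypes did not overlap in a region, 1 of 8 in hindbrain and 0 of 8 in forebrain and midbrain. Of all genes tested, 10.7% did not overlap in hindbrain, 10.2% in forebrain and 11.4% in midbrain. In hindbrain it lay at 22.9, 28.2 and 20.2 CPM in Fmr1CRE replicates 1, 2 and 3 and at 17.2, 20.1 and 18.6 CPM in wild-type replicates 1, 2 and 3, where the lowest Fmr1CRE and the highest wild-type library differed by less than 0.1 CPM. The log2 difference was 0.31 (95% interval -0.028 to 0.65, adjusted p = 0.875 from edgeR, exact permutation p = 0.1, the smallest possible). In forebrain, with the low library of Fmr1CRE replicate 1 included, it was -0.47 (95% interval -1.17 to 0.23, adjusted p = 0.812), and in midbrain 0.014 (95% interval -0.54 to 0.57). Were the hindbrain labels of replicate 3 exchanged, 18.6 CPM would belong to Fmr1CRE and 20.2 CPM to wild type. The hindbrain groups would then overlap.

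The intervals of the other 6 genes set bounds of unequal use. For C1ql3 they ran from -0.47 to 0.23 in forebrain and from -0.15 to 0.39 in midbrain, and for Fibcd1 from -0.35 to 0.57 and from -0.68 to 0.26. For C1ql2 they ran from -0.78 to 1.10 in forebrain and from -0.77 to 0.26 in midbrain. For Prox1 they ran from -0.55 to 0.61 and from -0.31 to 0.63, and for Zbtb20 from -0.90 to 0.39 and from -0.76 to 0.98. For Dsp, with forebrain values of 3.87, 0.371 and 9.22 CPM in Fmr1CRE mice and 2.69, 7.52 and 5.24 CPM in wild-type mice, the forebrain interval of -2.14 to 1.77 allows a change of more than 2-fold in either direction.

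**Figure D5:**
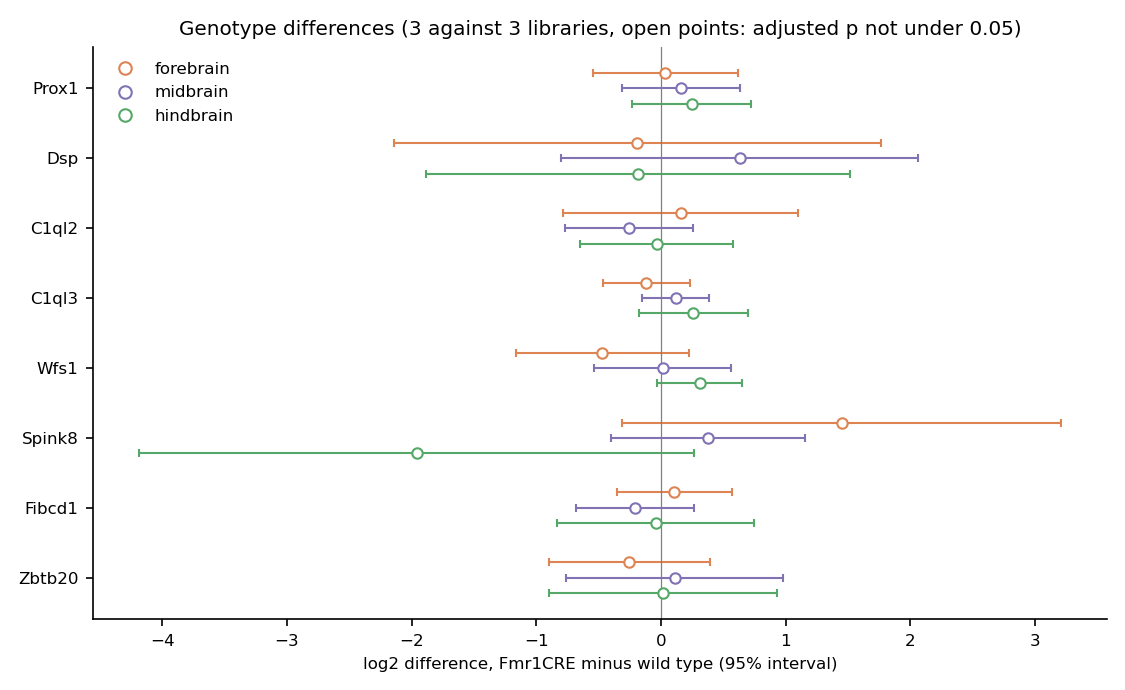
Log2 difference of Fmr1CRE minus wild type (horizontal axis) with its 95% interval from edgeR for each of the 8 genes in forebrain, midbrain and hindbrain, 3 libraries against 3. All points are open, since 0 of the 24 had an adjusted p under 0.05, and every interval includes 0, with the widest for Spink8 in hindbrain.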

How the data were processed

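Poly(A) RNA of forebrain, midbrain and hindbrain from 3 Fmr1CRE and 3 wild-type mice was sequenced as single-end reads. The authors quantified transcripts with Salmon 0.14.0, and the submitters' processing notes also name DESeq2 1.30.1 and mm10. Strand use in counting is not given in the sources used here, so antisense overlaps cannot be separated. The deposited gene counts are whole numbers, made by the authors from estimated transcript counts. The authors also deposited expected counts, TPM and effective lengths (in bases) per transcript, which were used only pooled over all 18 files for transcript lengths, since some file names and sample records disagree. The deposited log2 values after variance stabilization were not used, because the copy used here was incomplete. The number of measured columns unused was 0 in the count table.

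Regions were compared over all 18 libraries, averaged over genotypes, and genotypes within each region over 6, with edgeR 4.0.16 in R 4.3.3 (TMM, its default filter on low counts, quasi-likelihood test, Benjamini-Hochberg adjustment at 0.05, 95% intervals). Log2 CPM used a prior count of 2. The region fit takes the 3 libraries of a mouse as independent. Libraries of 1 mouse are paired by the animal number in their titles, and their deviations from the group means correlated between -0.17 and 0.18 over 18 pairs. A fit with the mouse as a block is an alternative, as are DESeq2 1.42.0, other scalings, filters and subsets of mice. Libraries of a group came from separate mice, and no pair agreed within sampling noise. Symbols and positions are from GENCODE M21 (GRCm38), and 53363 of 53468 identifiers had a symbol. Promoter entries were found for 7 of the 8 genes, all but Spink8.

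The 8 genes, the marker lists and the comparisons were chosen with earlier results of these data known. All 8 genes were named, with up to 4 genes per list of the highest mean CPM, and the 3 protein-coding genes of at least 1 mean CPM most like each member. The fits were tested on simulated data with known differences. Counts per library ran from 22455512 to 28061185, and at this depth Spink8 in hindbrain had 0 to 19 counts.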

Additional observations from a re-analysis of the deposited data

Results flagged for a closer look

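Dsp in the midbrain of Fmr1CRE replicate 2 stood at 15.2 CPM, against 6.99 CPM in the next library, a gap of 0.647 of the range of the 6 midbrain libraries. Wfs1 in the forebrain of Fmr1CRE replicate 1 stood at 30.9 CPM, against 73.2 CPM in the next library, a gap of 0.704 of the range of the 6 forebrain libraries. Each is a library far from the other 5 by Dixon's criterion, and chance alone puts about 1 in 20 groups past it. With 24 groups of 6 libraries looked at, about 1.2 are expected past it by chance.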

How the results depend on the processing

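Of 186 differences of the 8 genes recomputed under other settings, 178 kept their direction and their side of the threshold, and of 144 with 1 mouse left out, 134 did. Those that turned were Prox1 in forebrain minus hindbrain with total counts alone (-0.028) and, with 1 mouse left out, between -0.044 and 0.36, and in wild-type mice alone the midbrain minus forebrain differences of Dsp (-0.095) and Wfs1 (-0.11). That of Dsp ran from -0.44 without Fmr1CRE replicate 2 to 0.98 without Fmr1CRE replicate 3. The number of genes called between midbrain and forebrain fell from 3939 to 1729 in wild-type mice alone, which are fewer samples, and ran from 2258 without wild-type replicate 1 to 4001 with 1 mouse left out (2592 without Fmr1CRE replicate 1, 2337 without wild-type replicate 2). Calls gained were those of Zbtb20 in midbrain minus hindbrain (adjusted p = 0.0472 with DESeq2, 0.0378 with edgeR and no filter, 0.0047 without Fmr1CRE replicate 3), and, without Fmr1CRE replicate 2, of C1ql2 (0.81) and Prox1 (0.36) in forebrain minus hindbrain.

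Between genotypes, genes called in forebrain numbered 31 with DESeq2 and 1 in 1 fit of all 18 libraries. In midbrain they numbered 62 with DESeq2, 11 with no filter, 0 with at least 10 counts in every library, 0 in 1 fit of all libraries and 3 without both mice of replicate 3, and 0 to 4 with 1 mouse left out. In hindbrain they numbered 59 with DESeq2, 11 with no filter, 1 in 1 fit of all libraries and 1 without both mice of replicate 3, and 0 to 5 with 1 mouse left out. The interaction gave 52 genes with DESeq2, 7 with no filter and 0 to 4 with 1 mouse left out. The cause was not tested for these, and 0 of the 8 genes were among the calls of any setting. Where 1 mouse was left out of a genotype comparison, the group of 2 shared its spread with the other.

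With the mouse as replicate block, the region comparisons called 10201, 9671 and 3464 genes (forebrain minus hindbrain, midbrain minus hindbrain, midbrain minus forebrain) and 6, 7 and 3 of the 8 genes, and no call among the 8 changed. Between genotypes the replicate numbers are only numbers (correlations between -0.12 and 0.07 over 9 pairs), and the block gave 0, 1 and 0 genes. Depth limits Spink8 in hindbrain (0 to 19 counts).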
